A study of Homo sapiens with 27 samples.

Results

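The 6 long-term estrogen-deprived (LTED) variants of 2 invasive lobular breast carcinoma (ILC) cell lines were compared with each other, 4 of MM134 (LTED-A, -B, -D and -E) against 2 of SUM44 (LTED-A and -B). They account for 18 of the 27 RNA-Seq libraries of the series, chosen by the cell line and variant in their names. MM134 (MDA-MB-134VI) and SUM44 (SUM44PE) are human estrogen receptor-positive cell lines. Each variant was derived separately by keeping hormone-deprived cells for months in medium with charcoal-stripped serum, which carries almost no estrogen. The stripping also removes other lipophilic compounds. The MM134 variants came from MM134 cells and the SUM44 variants from SUM44F cells, a SUM44PE culture adapted to serum medium. MM134 parental and SUM44F parental cells, which had been hormone-deprived for 3 days, are used here to set each LTED difference beside the difference that the parental cells of the 2 lines already showed. The variants are single cultures seeded in 3 wells each, so the variant and not the well is the unit of every test, and 1 parental culture per line gives no spread of its own.

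ILC is the breast cancer type defined by loss of E-cadherin, the cell adhesion protein that links epithelial cells to each other, and most of these tumors depend on the estrogen receptor (ER, encoded by ESR1). Estrogen deprivation models the treatment with aromatase inhibitors, which block estrogen synthesis. Cells that regrow without estrogen can keep ER signaling active without ligand, or grow through other growth factor, cell cycle or metabolic pathways. The comparison asks how far the resistant states of the 2 lines differ in expression, and how much of that difference was present before selection.

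Levels are given as CPM, counts scaled by TMM to a common library size, with the wells of a variant summed. Unless another order is named, the values of a gene run over MM134 LTED-A, -B, -D and -E and then over SUM44 LTED-A and -B. Differences are log2 fold changes of MM134 LTED minus SUM44 LTED with their standard error (SE), so a positive value means a higher level in MM134. A call needed a difference above 1.5-fold and an adjusted p below 0.05 (edgeR quasi-likelihood F-test on 4 against 2 variants, two-sided, Benjamini-Hochberg adjustment over all genes tested).

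The counts summed to between 32284183 and 101378762 per MM134 LTED library (median 44668629) and between 34591553 and 134882175 per SUM44 LTED library. In SUM44 LTED-A, replicates 2 and 3 differed by less than sampling noise (chi-square per degree of freedom 0.312, against 2.35 to 58.1 for the other 17 pairs of LTED wells) and were counted as 1 sample, which leaves 17 wells. The values of 58.1 and 56.6 belonged to SUM44 LTED-A replicate 1 against replicates 2 and 3, and the remaining LTED pairs did not exceed 10.6. Replicate 1 had 39941907 counts against 134882175 and 111689734, so the averaged pair weighs more in the sum of this variant. The averaged pair is named SUM44 LTED-A replicate 2 below. Where it is left out, replicate 1 alone stands for this variant. The share of mitochondrial reads was 0.907% to 1.31% in MM134 and 1.58% to 2.60% in SUM44 libraries, and its part in the differences was not tested. Epithelial markers were high in all 6 variants, with 8 luminal genes summing to between 6155 and 6623 CPM in MM134 and between 6347 and 8415 CPM in SUM44. Of these, MUC1 was low in MM134 (0.679 to 5.67 CPM against 8.58 and 12.1 CPM in SUM44). Immune markers summed to 1.27 to 10.3 CPM in MM134 and 0.811 to 0.935 CPM in SUM44. In the variant with the highest sum, LTED-A, 9.71 CPM of it was LYZ, while PTPRC (CD45), the pan-leukocyte marker, did not exceed 0.258 CPM in any variant.

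Over the 1000 genes with the largest interquartile range among LTED wells, the lines lay further apart than the variants of a line. The first principal component separated all MM134 from all SUM44 wells and held 87.2% of the variance, whereas the next components (5.59% and 2.79%) spread the MM134 variants apart. In distance over the same genes (Euclidean, log2 CPM + 1), wells of different lines lay 108 to 117 apart, wells of different MM134 variants 29.7 to 40.9 and wells of different SUM44 variants 24.7 to 25.9. Wells of the same variant lay 3.31 to 9.31 apart. The smallest distance between lines was thus larger than any distance within a line over these genes. This choice of genes favors those that differ between the lines, since a gene apart in a single variant has a small interquartile range. The share and the distances thus hold for these genes and do not weigh lines against variants over all genes.

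**Figure D1:**
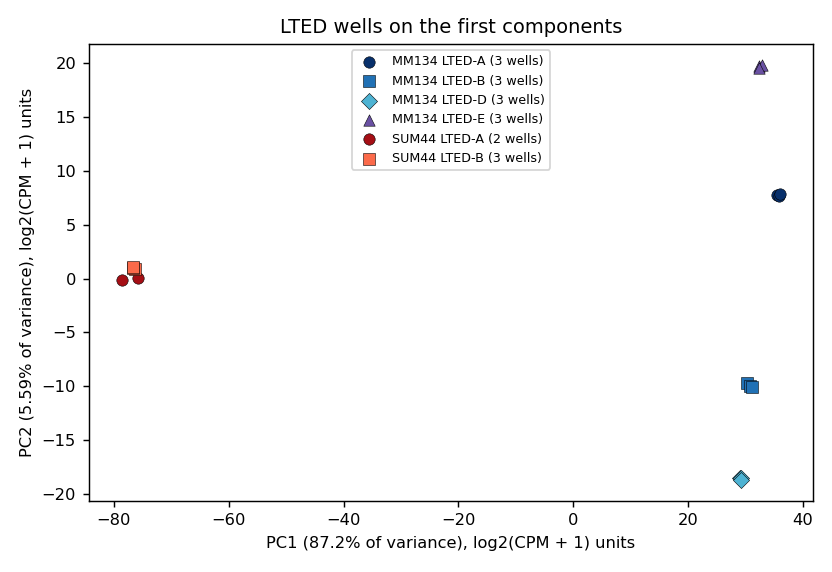
Each point is a well of an LTED variant on the first 2 principal components of log2(CPM + 1), with the share of variance on each axis. MM134 wells lie on the right and SUM44 wells on the left of PC1 (87.2%), and PC2 (5.59%) orders the MM134 variants from LTED-D to LTED-E.

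Of 32581 genes tested, 10904 (33.5%) were called. Those higher in MM134 LTED numbered 5542 (17%) and those higher in SUM44 LTED 5362 (16.5%), so the directions were nearly balanced, and the median log2 fold change over all genes was 0.00. The variants of the lines did not overlap at 18136 genes (55.7% of those tested). Among the called genes, 1959 were more than 4-fold higher in MM134 and 1649 in SUM44, and 493 and 406 differed more than 32-fold. These shares are the background for the counts of list members. A list with counts near them is not set apart from other genes.

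Most genes called between the LTED lines differed in the same direction between the parental cells. Of the genes higher in MM134 LTED, 73.2% were more than 1.5-fold higher in MM134 parental than in SUM44F parental cells, 20.9% lay within 1.5-fold and 5.94% lay more than 1.5-fold in the opposite direction. Of the genes higher in SUM44 LTED, the shares were 69.2%, 27.1% and 3.67%. The parental difference rests on 1 culture per line and is given as a value without a call. The share of all tested genes with such a parental difference was not counted, so these shares have no background beside them.

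The genes with the widest gap between the lines were on in every variant of one line and nearly silent in the other. On the MM134 side, TFAP2B, an AP-2 transcription factor of luminal cells, reached 255, 216, 274 and 291 CPM in MM134 and 0.487 and 0.405 CPM in SUM44 (log2 fold change 9.17 ± 0.25, adjusted p = 8.77e-06). CRABP1, a binding protein for retinoic acid, stood at 188, 169, 170.2 and 169 CPM against 0.105 and 0.0737 CPM (log2 fold change 10.91 ± 0.23, adjusted p = 7.88e-06). CXCL12, the chemokine that binds CXCR4 and an estrogen-induced gene, stood at 38.6, 29.04, 22.4 and 38.6 CPM against 0.0263 and 0.0246 CPM (log2 fold change 10.25 ± 0.43, adjusted p = 2.8e-05). These genes and those below were picked among called genes for the gap between the lines. Their lack of overlap therefore follows from the choice. The adapter genes BEX1 (37.1 to 183 CPM in MM134) and BEX3 (87.8 to 138), the membrane protein genes ANO5 (60.7 to 78.6) and TMEM178B (55.6 to 121), TUSC3, a subunit of the oligosaccharyltransferase (36.7 to 50.8), and GSTT2B, a glutathione transferase (36.9 to 46.8), did not exceed 0.138 CPM in either SUM44 variant. GSTT2B has a near-identical neighbor, GSTT2, and the estimated counts may divide reads between them. PCSK1N, an inhibitor of prohormone convertase, had 22.2, 26.8, 18.3 and 15.04 CPM in MM134 and 2 counts over the SUM44 variants, a ratio of 3270 (95% counting interval 905 to 27003).

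On the SUM44 side, the secreted proteins MGP (matrix Gla protein) and IGFBP5 (an IGF-binding protein) were among the highest. MGP stood at 0.978, 2.75, 1.14 and 2.68 CPM in MM134 and at 3383 and 6899 CPM in SUM44 (log2 fold change -11.42 ± 0.64, adjusted p = 7.54e-05). IGFBP5 stood at 0.275, 1.04, 0.663 and 5.21 CPM and 3242 and 4349 CPM (log2 fold change -11.06 ± 1.27, adjusted p = 0.00108). PHGDH, which opens the serine synthesis pathway, stood at 0.304, 0.314, 0.285 and 0.351 CPM and 233 and 203 CPM (log2 fold change -9.44 ± 0.15, adjusted p = 2.66e-06). MM134 parental cells were low in these genes too, with 4.85, 17.9 and 0.364 CPM. The flippase ATP8A2 (1002 and 263 CPM), the scaffold kinase CASK (144 and 128 CPM), the histone gene H2BC6 (161 and 181 CPM), the deoxycytidylate deaminase DCTD (51.99 and 69.1 CPM), TSPYL5 (89.8 and 134 CPM) and the protease CTSF (67.7 and 51.5 CPM) had at most 0.609 CPM in MM134. All of them were called, as the choice required.

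**Figure D2:**
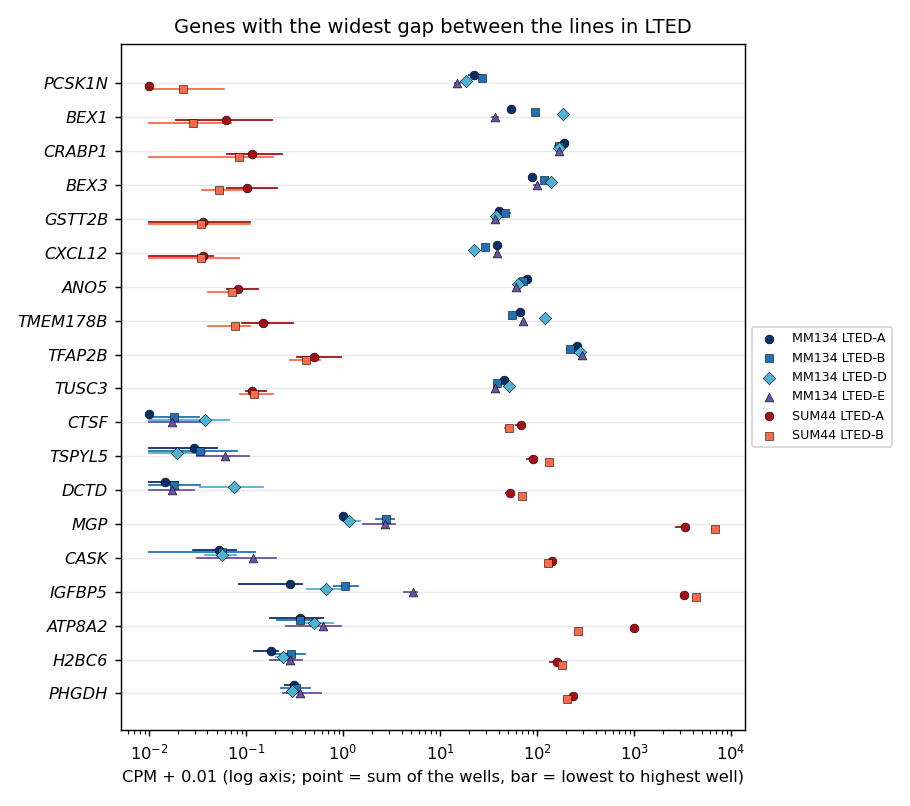
Levels (CPM + 0.01, log axis) of 19 of the genes with the widest gap, 10 higher in MM134 and 9 higher in SUM44. Points are the summed wells of a variant and bars run from its lowest to its highest well. No MM134 variant overlaps a SUM44 variant in any of them, which follows from the choice by gap.

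Antigen presentation separated the lines in opposite ways. MHC class II molecules present extracellular peptides to T helper cells and are switched on by the coactivator CIITA, mostly in immune cells, while epithelial cells can be induced to express them. MHC class I molecules present peptides from inside the cell, cut by the immunoproteasome (PSMB8, PSMB9) and carried by the TAP transporter. Of 12 class II genes tested, 10 were higher in MM134 LTED and 0 in SUM44 LTED, with a median log2 fold change of 4.68 against 0.00 over all genes. In the parental cells the median was -0.58.

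Among the class II chains, HLA-DRA (chr6:32439878-32445046, hg38, GENCODE coordinates here and for later genes) stood at 134, 15.2, 76.5 and 44.3 CPM in MM134 and at 1.83 and 0.553 CPM in SUM44 (log2 fold change 5.82 ± 1.12, adjusted p = 0.00776). HLA-DRB1 stood at 93.96, 12.7, 52.4 and 35.3 CPM against 0.375 and 0.0737 CPM (log2 fold change 7.75 ± 1.21, adjusted p = 0.00344). HLA-DQB1 stood at 54.8, 9.31, 30.1 and 34.2 CPM against 0.119 and 0.00614 CPM (log2 fold change 9.01 ± 1.24, adjusted p = 0.00217). In all of these LTED-A was the highest and LTED-B the lowest MM134 variant, yet LTED-B exceeded both SUM44 variants. CD74, the invariant chain that guides class II molecules through the cell, stood at 313, 52.1, 176 and 85.7 CPM against 4.505 and 4.299 CPM (log2 fold change 5.15 ± 0.86, adjusted p = 0.00459). HLA-DMA and HLA-DMB form the complex that loads the peptide. HLA-DMA stood at 68.7, 33.9, 34.1 and 62.4 CPM against 3.64 and 2.66 CPM (log2 fold change 3.97 ± 0.43, adjusted p = 0.000831). HLA-DMB stood at 20.7, 5.02, 13.4 and 19.4 CPM against 0.257 and 0.240 CPM (log2 fold change 5.87 ± 0.71, adjusted p = 0.00134). In parental cells both were lower in MM134 (2.22 and 0.316 CPM) than in SUM44F (9.96 and 1.04 CPM), and CD74 was also lower (21.5 against 34.2 CPM). The other genes called were HLA-DPA1 (log2 fold change 5.07 ± 1.12), HLA-DPB1 (4.29 ± 0.83), HLA-DQA1 (3.89 ± 0.87) and HLA-DOB (1.59 ± 0.39), the last at up to 0.204 CPM. CIITA stood at 18.1, 5.75, 13.3 and 14.3 CPM and 5.79 and 5.12 CPM and was not called (log2 fold change 1.23 ± 0.43, adjusted p = 0.0631), nor was HLA-DOA (0.18 ± 0.32). With SUM44 LTED-A or SUM44 LTED-B left out, HLA-DPB1 and HLA-DQA1 were not called, HLA-DPA1 was not called without LTED-B, and HLA-DOB was not called without LTED-A (adjusted p up to 0.054, 0.0829, 0.0748 and 0.0702). HLA genes vary between people, and how well the alleles of each line match the reference transcripts bears on these estimated counts and was not tested.

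The promoters of class II genes share a module that ends in a Y box, which holds the letters CCAAT. The promoters of HLA-DMA, HLA-DMB and CD74 are shown because these genes were lower in MM134 parental than in SUM44F parental cells and higher in MM134 in LTED. They span 250 bases before to 50 bases after the RefSeq start (GRCh38.p14, minus strand, printed 5′ to 3′ along the gene), with CCAAT in capitals on either strand (ATTGG where it lies on the opposite strand).
HLA-DMA, chr6:32953048-32953347: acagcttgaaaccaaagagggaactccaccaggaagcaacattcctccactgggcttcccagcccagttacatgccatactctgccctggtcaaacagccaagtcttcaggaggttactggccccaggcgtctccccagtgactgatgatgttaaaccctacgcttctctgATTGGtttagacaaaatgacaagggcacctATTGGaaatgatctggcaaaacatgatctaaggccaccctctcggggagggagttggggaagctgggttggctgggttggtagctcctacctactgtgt
HLA-DMB, chr6:32940979-32941278: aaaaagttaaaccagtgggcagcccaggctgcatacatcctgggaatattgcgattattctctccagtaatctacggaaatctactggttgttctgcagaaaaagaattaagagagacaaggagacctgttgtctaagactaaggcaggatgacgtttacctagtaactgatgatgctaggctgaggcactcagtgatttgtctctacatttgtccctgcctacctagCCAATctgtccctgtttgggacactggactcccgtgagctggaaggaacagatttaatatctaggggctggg
CD74, chr5:150412861-150413160: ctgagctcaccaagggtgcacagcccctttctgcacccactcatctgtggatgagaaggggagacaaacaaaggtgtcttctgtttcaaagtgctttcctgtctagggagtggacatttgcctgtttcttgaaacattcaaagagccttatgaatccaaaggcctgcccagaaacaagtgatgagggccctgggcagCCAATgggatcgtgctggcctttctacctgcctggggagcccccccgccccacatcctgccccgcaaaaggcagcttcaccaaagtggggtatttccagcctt

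The letters began 79 and 49 bases before the start in HLA-DMA, 22 bases before it in HLA-DMB and 53 bases before it in CD74. CCAAT occurred in 9 of the 10 class II promoters at hand (90%) and in 9747 of all 27305 promoters (35.7%). A high share was not particular to class II. CCAAT occurred in 13 of 15 promoters of the proliferation list (86.7%), 17 of 20 of HOX genes (85%) and 12 of 15 of cholesterol synthesis (80%). The shares were lower for fatty acid synthesis (7 of 13, 53.8%) and for SREBP regulation and sterol handling (5 of 14, 35.7%). A match of 5 letters is a description of these windows and not a binding site.

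Class I and peptide loading went mostly the other way, with 7 of 12 genes higher in SUM44 and 3 in MM134 (median -1.18). The immunoproteasome subunit PSMB8 stood at 1.83, 2.598, 5.64 and 2.64 CPM in MM134 and 47.7 and 41.4 CPM in SUM44 (log2 fold change -3.82 ± 0.42, adjusted p = 0.00095), and PSMB9 at 0.836, 0.793, 1.298 and 0.846 CPM and 12.9 and 10.4 CPM (log2 fold change -3.64 ± 0.25, adjusted p = 0.000167). HLA-B stood at 36.1, 26.9, 47.9 and 24.7 CPM and 196 and 139.9 CPM (log2 fold change -2.32 ± 0.29, adjusted p = 0.00141). None of these overlapped between the lines, and TAP1 (-1.98 ± 0.21), TAP2 (-1.65 ± 0.17), HLA-C (-1.43 ± 0.27) and the class I transactivator NLRC5 (-0.94 ± 0.24) were also higher in SUM44. HLA-F (1.61 ± 0.39) and B2M, the shared light chain (1.44 ± 0.28), were higher in MM134. NLRC5 was not called without SUM44 LTED-A replicate 2 or without SUM44 LTED-B (adjusted p up to 0.132), and HLA-F and B2M were not called without SUM44 LTED-B.

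Interferon-stimulated genes, which respond to viral and immune signals, were split. Of 16 genes, 5 were higher in SUM44 and 1 in MM134, against 16.5% and 17% of all genes tested. The antiviral RNA sensors OAS1, OAS2 and OAS3 had log2 fold changes of -4.07 ± 0.71, -2.31 ± 0.69 and -3.19 ± 1.01. OAS3 stood at 3.39, 6.48, 45.6 and 5.02 CPM in MM134, where LTED-D was the highest, and at 146 and 128 CPM in SUM44. IRF1 (-1.97 ± 0.24) and MX1 (-0.72 ± 0.22) were higher in SUM44 as well. IFI6 was higher in MM134, at 32.9, 11.6, 10.2 and 4.29 CPM against 1.59 and 2.11 CPM (log2 fold change 2.99 ± 0.83, adjusted p = 0.0294). OAS2 and OAS3 lost their calls when any of 5 variants was left out (all but MM134 LTED-D; adjusted p up to 0.125 and 0.131), IFI6 without MM134 LTED-B or either SUM44 variant (0.146), and MX1 without SUM44 LTED-A replicate 2 or any of 5 variants (0.281).

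Of 9 receptors for steroid hormones and related orphan receptors, 2 were higher in each line, against 17% (MM134) and 16.5% (SUM44) of all genes tested. ESR1 (chr6:151656691-152129619) was lower in MM134 LTED, with 148, 528, 470.3 and 264 CPM against 1436 and 1364 CPM in SUM44 (log2 fold change -2.0 ± 0.46, adjusted p = 0.0146). LTED-A was the lowest and LTED-B the highest MM134 variant, and none reached the SUM44 variants. In parental cells ESR1 stood at 357 and 544 CPM. NR3C1, the glucocorticoid receptor, stood at 37.7, 50.4, 50.6 and 49.4 CPM in MM134 and 0.270 and 0.147 CPM in SUM44 (log2 fold change 7.81 ± 0.36, adjusted p = 3.49e-05), and was as far apart in parental cells (71.7 and 0.170 CPM). The mineralocorticoid receptor NR3C2 was also higher in MM134 (2.19 ± 0.32) and the orphan receptor ESRRA higher in SUM44 (-2.75 ± 0.16). PGR, the progesterone receptor and a classical ER target, was near the floor in all variants (0.171, 0.581, 0.267 and 0.129 CPM and 0.145 and 0.111 CPM, log2 fold change 1.14 ± 0.64, adjusted p = 0.21). Without either SUM44 variant ESR1 was not called (log2 fold change -2.25 to -1.74 over all leave-outs, adjusted p up to 0.0619).

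Estrogen-induced genes were more often higher in MM134. Of 15 genes, 5 were higher in MM134 and 1 (MYB, -1.37 ± 0.36) in SUM44, against 17% and 16.5% of all genes tested. The median was 0.78 in LTED and already 0.71 in the parental cells. TFF3, a secreted trefoil factor, stood at 2431, 2282, 1816 and 2805 CPM in MM134 and 381 and 97.1 CPM in SUM44 (log2 fold change 3.28 ± 0.57, adjusted p = 0.00543), while the parental levels were 106 and 88.7 CPM. The EGFR ligand AREG (3.80 ± 0.26), the potassium channel KCNK5 (2.0 ± 0.33), XBP1 (1.45 ± 0.28) and CXCL12, described above, were the others. GREB1, a coactivator of ER and widely used target, was nearly equal, with 16.6, 74.5, 59.5 and 47.9 CPM in MM134 and 44.2 and 61.4 CPM in SUM44 (log2 fold change -0.10 ± 0.52, adjusted p = 0.904), and LTED-A was the lowest variant. TFF1, the other trefoil factor of the list, was not called (log2 fold change 1.73 ± 0.67, adjusted p = 0.0824). MYB was not called without MM134 LTED-A or SUM44 LTED-B (adjusted p up to 0.188).

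Of 14 transcription factors tied to luminal identity, 3 were higher in MM134 and 4 in SUM44, against 17% and 16.5% of all genes tested. FOXA1, which opens chromatin for ER, stood at 385, 429.7, 561 and 540.2 CPM and 688 and 584 CPM and was not called (log2 fold change -0.42 ± 0.19, adjusted p = 0.127), and GRHL2 (0.12 ± 0.11) and SPDEF (-0.27 ± 0.19) were not called either. GATA3 was lower in MM134, with 102, 159.6, 192 and 80.9 CPM against 408 and 389.9 CPM (log2 fold change -1.58 ± 0.33, adjusted p = 0.0103). TBX3, a repressor of the T-box family, was higher, with 211, 275, 305 and 260.3 CPM against 47.8 and 38.8 CPM (log2 fold change 2.59 ± 0.20, adjusted p = 0.000259). Besides TFAP2B, the AP-2 family also differed in TFAP2C, which was higher in SUM44 (log2 fold change -1.60 ± 0.26, adjusted p = 0.00425). ELF3 was higher in SUM44 (-1.06 ± 0.25), but not called without SUM44 LTED-A (adjusted p 0.118).

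Of 14 cadherins, catenins and tight junction genes, 2 were higher in MM134 and 4 in SUM44, against 17% and 16.5% of all genes tested. CDH1, which encodes E-cadherin, stood at 11.2, 11.2, 10.04 and 8.79 CPM in MM134 and 15.3 and 15.03 CPM in SUM44 and missed the fold minimum (log2 fold change -0.57 ± 0.15, adjusted p = 0.0271). CDH2 (N-cadherin) stood at 8.51, 6.87, 51.97 and 1.01 CPM in MM134, highest in LTED-D, and at 0.0329 and 0.0184 CPM in SUM44 (log2 fold change 9.34 ± 2.18, adjusted p = 0.0158). The catenins went in opposite directions, with CTNNB1 (beta-catenin) higher in SUM44 (164, 168, 198 and 194 CPM against 551 and 609 CPM, log2 fold change -1.69 ± 0.13, adjusted p = 0.000226) and CTNND1 (p120 catenin) higher in MM134 (414, 467, 451 and 552 CPM against 157 and 129 CPM, log2 fold change 1.71 ± 0.17, adjusted p = 0.00062). These catenins bind the tails of cadherins, and neither overlapped between the lines. CLDN4 (-0.91 ± 0.20), CDH3 (-0.81 ± 0.26) and the tight junction scaffold TJP1 (-0.68 ± 0.11) were higher in SUM44. CDH2 was not called without either SUM44 variant (adjusted p up to 0.0931), CLDN4 without SUM44 LTED-B, TJP1 without SUM44 LTED-A, and CDH3 without any of 4 wells or 5 variants (0.246) or with RLE size factors.

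Of 8 genes tested that mark the epithelial to mesenchymal transition, VIM (vimentin) was higher in MM134 and SPARC in SUM44. VIM stood at 114, 135, 96.5 and 65.8 CPM in MM134 and 0.382 and 0.221 CPM in SUM44 (log2 fold change 8.40 ± 0.49, adjusted p = 8.63e-05), with 130.2 and 12.9 CPM in the parental cells. SPARC, a matricellular protein, stood at 0.252, 0.416, 0.948 and 0.158 CPM and 14.05 and 25.2 CPM (log2 fold change -5.49 ± 0.68, adjusted p = 0.00144). The transcription factors that drive the transition were not called, with log2 fold changes of 0.38 ± 0.53 for ZEB1, -0.13 ± 0.16 for ZEB2, -0.70 ± 0.42 for SNAI1 and 0.96 ± 0.44 for TWIST1. Among keratins, 6 of 12 were higher in MM134 and 3 in SUM44. The luminal keratins KRT8 (-0.86 ± 0.27) and KRT18 (-0.90 ± 0.15) were higher in SUM44 and KRT19 (3741, 3159, 2977 and 3112 CPM against 1206 and 1036 CPM, log2 fold change 1.53 ± 0.16, adjusted p = 0.000722) and KRT7 (387, 249.6, 359 and 393 CPM against 123 and 40.6 CPM, log2 fold change 2.07 ± 0.46, adjusted p = 0.0133) in MM134. KRT80 was higher in SUM44 (log2 fold change -4.85 ± 0.50, adjusted p = 0.000743), and KRT16 had 3 counts over the SUM44 variants and was higher in MM134 at up to 0.331 CPM, a ratio of 18.3 (95% counting interval 6.07 to 90.0). KRT8 was not called without SUM44 LTED-A replicate 2, SUM44 LTED-B replicate 3 or any of 5 variants (adjusted p up to 0.385).

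Receptors for growth factors were more often higher in SUM44 LTED, with 6 of 18 against 2 in MM134. Over all genes tested the shares were 16.5% and 17%. The median of the list was -0.34 in LTED and -0.67 in the parental cells. ERBB2 (HER2) stood at 10.6, 16.02, 12.2 and 8.21 CPM in MM134 and 166 and 123 CPM in SUM44 (log2 fold change -3.62 ± 0.27, adjusted p = 0.000206). In parental cells the levels were 72.3 and 164 CPM. BMPR1B, a bone morphogenetic protein receptor, stood at 9.25, 2.300, 3.58 and 1.15 CPM and 18.3 and 68.6 CPM (log2 fold change -3.42 ± 0.82, adjusted p = 0.0174), and IGF1R at 51.6, 83.6, 72.1 and 107 CPM and 219.6 and 159.7 CPM (log2 fold change -1.28 ± 0.28, adjusted p = 0.012). FGFR2 (-1.70 ± 0.30), BMPR1A (-0.85 ± 0.10) and KIT (-1.26 ± 0.35) were the other 3. FGFR1, which lies in the 8p11 region that is often amplified in breast cancer, was higher in MM134, with 1274, 1069, 1647 and 1364 CPM against 382 and 614 CPM (log2 fold change 1.42 ± 0.26, adjusted p = 0.0063). PDGFRA was higher in MM134 at up to 0.414 CPM (log2 fold change 2.47 ± 0.37, adjusted p = 0.00294), and MET was not called (log2 fold change 3.08 ± 1.09, adjusted p = 0.0647). BMPR1B was not called without SUM44 LTED-B, IGF1R without SUM44 LTED-A, and KIT without SUM44 LTED-A replicate 2 or 3 of the variants (adjusted p up to 0.131, 0.0793 and 0.142).

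All 6 tested genes of the 11q13 amplicon, a segment that is often gained in ER-positive tumors, were higher in MM134. CCND1 (chr11:69641156-69654474), which encodes cyclin D1 and drives entry into S phase, stood at 2505, 3202, 4279.5 and 4491 CPM in MM134 and 1656 and 1507 CPM in SUM44 (log2 fold change 1.19 ± 0.27, adjusted p = 0.0137). The chloride channel ANO1 stood at 45.2, 55.1, 59.1 and 12.5 CPM and 1.51 and 8.32 CPM (log2 fold change 3.13 ± 0.90, adjusted p = 0.0337), with LTED-E nearest to SUM44. CTTN, which encodes cortactin, stood at 1984, 1590.1, 2001 and 2201 CPM and 892 and 821 CPM (log2 fold change 1.17 ± 0.17, adjusted p = 0.00239). LTO1 (1.63 ± 0.17), PPFIA1 (1.12 ± 0.13) and FADD (0.64 ± 0.14) completed the list. The median was 1.18, against 1.59 in the parental cells. CCND1 lay further apart in the parental cells, at 5189 CPM in MM134 and 442 CPM in SUM44F (log2 fold change 3.55). Its change between the states (-2.36 ± 0.47) was not called (edgeR interaction test, described below, adjusted p = 0.0827). The 8p11 genes showed no common direction, with 2 of 15 higher in MM134 and 3 in SUM44 (median 0.00), near the shares over all genes tested (17% and 16.5%). Among them were EIF4EBP1, the inhibitor of cap-dependent translation (277, 239, 261 and 249 CPM against 764 and 865 CPM, log2 fold change -1.68 ± 0.11, adjusted p = 0.000158), the lipase DDHD2 (-1.12 ± 0.12) and, higher in MM134, LETM2 (0.69 ± 0.18). CCND1 was not called without either SUM44 variant (adjusted p up to 0.0793), ANO1 without any of 4 variants (0.111) and FADD without SUM44 LTED-A (0.0747), and LETM2 was not called without MM134 LTED-A or SUM44 LTED-A (0.1).

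Regulators of the G1 phase differed in single members. RBL2 (p130), a pocket protein that holds resting cells in G0, stood at 49.6, 49.96, 49.5 and 49.7 CPM in MM134 and 529 and 590.3 CPM in SUM44 (log2 fold change -3.50 ± 0.10, adjusted p = 9.65e-06), and was as far apart in parental cells (48.4 and 815 CPM). CDKN1A (p21) stood at 1.93, 1.499, 2.96 and 4.34 CPM and 6.17 and 12.7 CPM (log2 fold change -1.82 ± 0.46, adjusted p = 0.0209), while the parental levels were 49.5 and 74.3 CPM. CDK4 (-0.89 ± 0.14) and E2F3 (-0.84 ± 0.16) were higher in SUM44, and the inhibitors CDKN2C (1.10 ± 0.17) and CDKN2D (0.86 ± 0.22) in MM134. In all, 4 of 21 were higher in SUM44 and 3, with CCND1, in MM134, near the shares over all genes tested (16.5% and 17%). CDKN1A was not called without SUM44 LTED-B, E2F3 without SUM44 LTED-A and CDKN2D without MM134 LTED-B or either SUM44 variant (adjusted p up to 0.148, 0.0533 and 0.101).

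Few proliferation genes were called in LTED, while the parental cells lay further apart. Of 18 genes, 3 were higher in MM134 LTED and 0 in SUM44 LTED, against 17% and 16.5% of all genes tested. The median log2 fold change was 0.09 in LTED and 1.42 in the parental cells. MCM2, a subunit of the replicative helicase, stood at 239, 233, 277 and 274 CPM in MM134 and 162 and 170.4 CPM in SUM44 (log2 fold change 0.61 ± 0.13, adjusted p = 0.0103), with parental levels of 269 and 69.97 CPM. CDC6, which loads the helicase, stood at 85.3, 80.3, 103 and 112 CPM and 55.6 and 68.4 CPM (log2 fold change 0.61 ± 0.18, adjusted p = 0.0351), with 116 and 27.2 CPM in the parental cells. In both genes both SUM44 variants lay above the SUM44F parental culture. MCM5 was the third (log2 fold change 0.95 ± 0.25, adjusted p = 0.0249). TOP2A, the topoisomerase of dividing cells, stood at 687, 940.4, 833 and 915 CPM and 534 and 602 CPM and missed the fold minimum (log2 fold change 0.56 ± 0.16, adjusted p = 0.0338), with 1429 and 254 CPM in the parental cells. MKI67 was not called (log2 fold change 0.16 ± 0.30, adjusted p = 0.705). CDC6 and MCM2 were not called without SUM44 LTED-A replicate 1 or with some variants left out (4 and 3 of 6, adjusted p up to 0.182 and 0.0578), and MCM5 was not called without MM134 LTED-E or SUM44 LTED-B.

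Many replication genes carry a site for E2F, the factor that is released by phosphorylated RB, close to their start. The promoters of the 2 called genes that hold such a site are shown in the same window (GRCh38.p14, plus strand), with the letters TTTCGCGC or TTTGGCGC on either strand in capitals.
CDC6, chr17:40287629-40287928: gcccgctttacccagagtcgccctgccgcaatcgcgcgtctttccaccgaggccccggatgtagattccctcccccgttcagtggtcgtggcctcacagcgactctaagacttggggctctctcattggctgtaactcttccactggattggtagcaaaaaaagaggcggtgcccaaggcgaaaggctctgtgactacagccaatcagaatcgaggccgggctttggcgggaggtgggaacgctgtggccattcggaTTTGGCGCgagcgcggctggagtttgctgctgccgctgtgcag
MCM2, chr3:127598161-127598460: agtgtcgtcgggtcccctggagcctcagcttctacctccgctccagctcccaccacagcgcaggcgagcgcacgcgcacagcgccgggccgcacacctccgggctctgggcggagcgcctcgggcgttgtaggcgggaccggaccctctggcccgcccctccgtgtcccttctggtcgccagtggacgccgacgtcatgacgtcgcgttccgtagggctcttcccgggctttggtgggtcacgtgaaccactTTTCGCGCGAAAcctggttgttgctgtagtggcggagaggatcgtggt

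The match began 7 bases after the start in CDC6. In MCM2, matches on opposite strands began 2 and 6 bases after the start and overlapped. Such a match occurred in 6 of 15 promoters of the proliferation list (40%: CDK1, MCM2, MCM3, MCM6, MCM7 and CDC6) and in 322 of all 27305 promoters (1.18%), while 4 of these 6 genes were not called.

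Lipid synthesis is controlled by the SREBP factors, which are released from the membrane by SCAP when sterols are low and induce enzymes of cholesterol and fatty acid synthesis. The factors themselves were not called, with 285, 188, 154 and 227 CPM against 262 and 264 CPM for SREBF1 (log2 fold change -0.31 ± 0.23, adjusted p = 0.331) and 109.8, 104, 93.1 and 139 CPM against 203 and 105 CPM for SREBF2 (log2 fold change -0.48 ± 0.27, adjusted p = 0.212). SCAP was higher in MM134, with 142, 155, 163 and 161 CPM against 61.2 and 68.4 CPM (log2 fold change 1.25 ± 0.12, adjusted p = 0.000563). STARD4, which carries cholesterol within the cell (log2 fold change 2.07 ± 0.40, adjusted p = 0.00789), and NPC2, which exports it from lysosomes (0.68 ± 0.12), were higher in MM134 too, and in all 4 of 16 were. NR1H3, the oxysterol receptor LXR alpha, was the only member higher in SUM44, with 3.78, 3.85, 4.22 and 3.53 CPM against 26.3 and 48.9 CPM (log2 fold change -3.29 ± 0.24, adjusted p = 0.000206). STARD4 was not called without SUM44 LTED-B (adjusted p 0.0526).

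Few enzymes of cholesterol synthesis were called. Of 20 enzymes, 2 were higher in MM134 and 2 in SUM44, against 17% and 16.5% of all genes tested, with a median of 0.13. HMGCS1, an early enzyme of the pathway, was not called, with 195, 151, 191 and 468 CPM against 82.7 and 101 CPM (log2 fold change 1.44 ± 0.48, adjusted p = 0.054). HMGCS1 was higher in each MM134 variant than in either SUM44 variant, and highest in LTED-E. SQLE (log2 fold change 1.23 ± 0.37, adjusted p = 0.0402) and LSS (log2 fold change 1.11 ± 0.27, adjusted p = 0.0181), which oxidize squalene and close the sterol ring, were higher in MM134. The last steps, DHCR7 (49.99, 33.8, 42.2 and 58.6 CPM against 224 and 200.4 CPM, log2 fold change -2.21 ± 0.21, adjusted p = 0.0005) and SC5D (log2 fold change -0.75 ± 0.13, adjusted p = 0.00537), were higher in SUM44. SQLE was not called without SUM44 LTED-A replicate 1 or any of 5 variants (adjusted p up to 0.197), and LSS was not called without SUM44 LTED-B.

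Of 16 genes of fatty acid synthesis, 6 were higher in MM134, 3 in SUM44 and 7 were not called (median 0.29). Over all genes tested, 17% were higher in MM134 and 16.5% in SUM44. Those not called included the early enzymes ACLY (log2 fold change 0.38 ± 0.17, adjusted p = 0.127), ACACB (log2 fold change -0.91 ± 0.31, adjusted p = 0.0568) and ACSS2 (log2 fold change -0.35 ± 0.12, adjusted p = 0.0571). The 6 higher in MM134 included FASN, which builds saturated chains, and SCD, which first desaturates them. FASN stood at 3105, 1394, 1879.5 and 2176 CPM in MM134 and 650.1 and 885 CPM in SUM44 (log2 fold change 1.47 ± 0.33, adjusted p = 0.0142), with 361 and 357 CPM in the parental cells. SCD stood at 2528, 1116, 1135 and 3709 CPM and 643 and 663 CPM (log2 fold change 1.69 ± 0.54, adjusted p = 0.0484). ACACA (0.80 ± 0.18), ELOVL6 (1.31 ± 0.33) and the citrate carrier SLC25A1 (135, 117, 101 and 135 CPM against 50.1 and 22.3 CPM, log2 fold change 1.74 ± 0.33, adjusted p = 0.00754) went the same way. ME1, which makes NADPH, was at 8.29, 0.188, 0.911 and 21.2 CPM in MM134 and 0.0198 and 0.0123 CPM in SUM44 (log2 fold change 8.82 ± 2.54, adjusted p = 0.0333), lowest in LTED-B of the MM134 variants. FASN was not called without SUM44 LTED-A, SCD without SUM44 LTED-A replicate 2 or any of 4 variants, ACACA without either SUM44 variant, ELOVL6 without SUM44 LTED-B, and ME1 without MM134 LTED-A or either SUM44 variant (adjusted p up to 0.0948, 0.182, 0.0653, 0.0507 and 0.151).

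The 3 higher in SUM44 make polyunsaturated chains from dietary precursors. FADS1 (chr11:61799627-61829318), the delta-5 desaturase, stood at 5.54, 4.76, 5.19 and 9.48 CPM in MM134 and 97.1 and 81.3 CPM in SUM44 (log2 fold change -3.85 ± 0.29, adjusted p = 0.000214). FADS2 (chr11:61792980-61867354), the delta-6 desaturase, stood at 7.36, 7.73, 12.9 and 12.5 CPM and 32.02 and 25.9 CPM (log2 fold change -1.52 ± 0.28, adjusted p = 0.00618). The elongase ELOVL5 stood at 131, 116, 114 and 121 CPM and 313 and 301 CPM (log2 fold change -1.36 ± 0.10, adjusted p = 0.000227). All 3 kept their calls with each well and each variant left out. In parental cells the order was the other way for FADS1 (111 and 55.5 CPM) and FADS2 (256 and 21.1 CPM), while ELOVL5 was nearly equal (226 and 203 CPM). Neighboring FADS3 (chr11:61873519-61892051) behaved alike, with 5.71, 5.03, 5.84 and 5.63 CPM against 15.1 and 13.7 CPM in LTED and 21.6 against 16.2 CPM in parental cells (log2 fold change -1.39 ± 0.15, adjusted p = 0.000788). Thus in all 3 FADS genes the 4 MM134 variants lay below the MM134 parental culture. Stripped serum is also depleted of lipophilic compounds other than estrogen, and the part of this in the levels of lipid genes was not tested.

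Of 19 genes of fatty acid oxidation, 4 were higher in SUM44 and 3 in MM134, near the shares over all genes tested (16.5% and 17%). CPT1A, which brings fatty acids into mitochondria, stood at 375, 467, 345 and 343 CPM in MM134 and 674 and 624 CPM in SUM44 (log2 fold change -0.77 ± 0.15, adjusted p = 0.00881). HADHA (213, 245, 214 and 193 CPM against 453 and 662 CPM, log2 fold change -1.37 ± 0.17, adjusted p = 0.00149) and HADHB (-1.57 ± 0.26), which form the trifunctional enzyme for long chains, and ACAA2 (-1.19 ± 0.32) were also higher in SUM44. ACADM, which opens the oxidation of medium chains (81.2, 59.2, 62.1 and 66.6 CPM against 27.5 and 27.1 CPM, log2 fold change 1.29 ± 0.16, adjusted p = 0.00136), the ketone enzyme BDH1 (0.70 ± 0.15) and PPARA, the receptor that induces the pathway (1.81 ± 0.25), were higher in MM134. CPT1A and BDH1 were not called without SUM44 LTED-A (adjusted p 0.0512 and 0.0626), and ACAA2 was not called without any of 4 variants (0.225).

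Of 25 enzymes that make or inactivate steroids, 6 were higher in MM134 and 7 in SUM44, against 17% and 16.5% of all genes tested. Those higher in MM134 included inactivating enzymes. UGT2B15, which couples androgens to glucuronic acid, stood at 11.7, 16.04, 19.8 and 3.43 CPM in MM134 and 0.198 and 0.258 CPM in SUM44 (log2 fold change 5.79 ± 0.84, adjusted p = 0.00258). HSD17B2, which oxidizes estradiol to estrone, stood at 86.7, 65.8, 18.9 and 48.6 CPM and 2.44 and 2.79 CPM (log2 fold change 4.38 ± 0.65, adjusted p = 0.00289), and UGT2B7 was higher too (log2 fold change 3.19 ± 0.40, adjusted p = 0.00154). Members of the UGT2B family are close in sequence, and how reads were divided among them is not known. HSD17B1, an enzyme of estradiol synthesis, was also higher in MM134, with log2 fold changes of 0.597 to 1.17 with single wells or variants left out. Its call was lost without MM134 LTED-A, MM134 LTED-B or SUM44 LTED-B. Other enzymes of estrogen synthesis were among those higher in SUM44. The calls of these enzymes were thus split between the lines, with that of HSD17B1 unstable. CYP19A1 (aromatase) stood at 0.00475, 0.0235, 0.0644 and 0.150 CPM and 2.75 and 2.95 CPM (log2 fold change -5.61 ± 0.78, adjusted p = 0.00221), with 0.182 and 3.51 CPM in the parental cells. AKR1C3 stood at 0.551, 0.0785, 0.0736 and 1.52 CPM and 3.41 and 16.4 CPM (log2 fold change -4.15 ± 1.18, adjusted p = 0.0319), and STS, the steroid sulfatase, at 93.7, 24.2, 8.27 and 22.6 CPM and 308 and 161 CPM (log2 fold change -2.67 ± 0.83, adjusted p = 0.0424). AKR1C3 and STS were each lost without 4 of the 6 variants (adjusted p up to 0.194 and 0.191), and STS also by DESeq2.

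Glycolytic and hypoxia genes were higher in SUM44 at 7 of 22 and in MM134 at 3, against 16.5% and 17% of all genes tested. SLC2A1, the glucose transporter GLUT1, stood at 340.4, 701, 791 and 448 CPM in MM134 and 80.2 and 61.6 CPM in SUM44 (log2 fold change 3.0 ± 0.41, adjusted p = 0.00207). NDRG1, a stress-induced gene, stood at 1.197, 0.934, 1.35 and 0.222 CPM and 77.7 and 34.8 CPM (log2 fold change -5.93 ± 0.67, adjusted p = 0.00102). PFKFB3 (5.88, 5.57, 7.89 and 7.02 CPM against 38.02 and 37.5 CPM, log2 fold change -2.53 ± 0.17, adjusted p = 0.000165) and PFKP (-2.06 ± 0.33), which set and carry out the committed step, were higher in SUM44. Thus the transporter was higher in one line and these enzymes in the other. CA9, a hypoxia-induced carbonic anhydrase, was higher in MM134, mainly in LTED-A (3.58, 0.754, 0.736 and 0.867 CPM against 0.00659 and 0.123 CPM, log2 fold change 4.48 ± 1.19, adjusted p = 0.0249), but not called without SUM44 LTED-A (adjusted p 0.102).

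Of 14 WNT ligands, 2 were higher in each line, near the shares over all genes tested (17% in MM134 and 16.5% in SUM44). WNT11 stood at 4.13, 6.22, 6.45 and 6.43 CPM in MM134 and 0.797 and 1.36 CPM in SUM44 (log2 fold change 2.42 ± 0.33, adjusted p = 0.00199), while WNT3 stood at 1.75, 0.965, 4.01 and 1.89 CPM and 17.3 and 17.4 CPM (log2 fold change -3.02 ± 0.49, adjusted p = 0.00408). WNT4, a ligand under ER control in ILC cells, was not called, with 13.5, 8.901, 8.11 and 17.3 CPM against 7.24 and 6.01 CPM (log2 fold change 0.84 ± 0.34, adjusted p = 0.0933). WNT9A (1.13 ± 0.33) and WNT16 (-1.34 ± 0.43, at most 0.132 CPM in LTED) were the other 2. WNT16 was not called without any of 7 wells or 5 variants, nor was WNT9A without any of 3 variants (adjusted p up to 0.204 and 0.141).

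HOX genes, which keep the positional identity of a cell through its divisions, were mostly higher in SUM44. Of 22 tested, 12 were higher in SUM44 and 4 in MM134, with a median of -2.78, also with HOXB4 at the bound given for it. The parental median was -6.55, but over the 30 HOX genes tested in the fit with the parental cultures. The 2 medians are thus over different sets and cannot be set against each other. The median interaction over the 30 was 1.07. The HOXB cluster was on in SUM44 and off in MM134. HOXB2 stood at 10.96 and 9.59 CPM in SUM44 with 1 count over the 4 MM134 variants, a ratio of 6008 (95% counting interval 1077 to 237359). HOXB4 stood at 3.62 and 5.42 CPM with 0 counts in MM134, at least 884-fold lower (from a floor of 3 counts over the line). HOXB7 stood at 0.0712, 0.0471, 0.0828 and 0.0573 CPM and 15.6 and 12.1 CPM (log2 fold change -7.74 ± 0.26, adjusted p = 1.41e-05). Of the other members of the cluster, HOXB3, HOXB5, HOXB6 and HOXB9 were called in the same direction. The HOXC genes HOXC10 (0.00475, 0.0314, 0.0460 and 0.00717 CPM against 39.1 and 31.3 CPM) and HOXC11 (0.0380, 0.0235, 0.0736 and 0.0287 CPM against 7.26 and 6.47 CPM) were likewise higher in SUM44, with HOXC5, HOXC8 and HOXC12 at lower levels. HOXD8 was higher in MM134 (7.02, 10.9, 7.91 and 8.85 CPM against 1.57 and 2.800 CPM, log2 fold change 1.98 ± 0.31, adjusted p = 0.00367), as were HOXD1, HOXD3 and HOXD12 at most at 0.709 CPM. The called HOXB and HOXC genes were thus all higher in SUM44 and the called HOXD genes all higher in MM134. HOXD12 was not called without any of 9 wells or 3 variants (adjusted p up to 0.177), nor HOXC5 without SUM44 LTED-A.

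**Figure D3:**
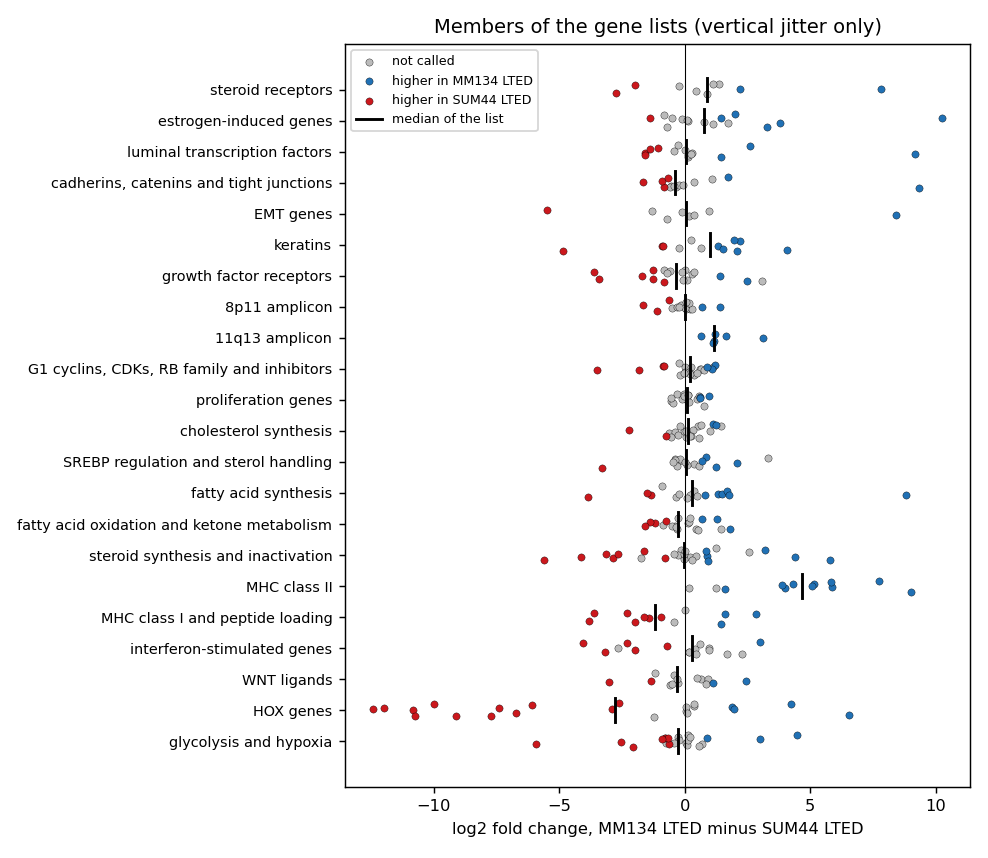
Log2 fold change of each tested member of 22 gene lists, MM134 LTED minus SUM44 LTED. Blue and red points were called higher in MM134 and SUM44 and gray points were not called. The median (black bar) lies at 4.68 for MHC class II and at -2.78 for HOX genes, and near 0 for most other lists. Genes with 0 to 3 counts in a line are drawn at fitted values, which depend on the prior count.

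The difference between the lines was then compared between states. The interaction is the LTED difference minus the parental difference, fitted on the 6 variants and the 2 parental cultures, with each parental culture assumed to vary like the variants. Of 36401 genes, 308 (0.846%) were called, 200 (0.549%) toward MM134 and 108 (0.297%) toward SUM44. Of the 200, 85 were also called higher in MM134 LTED, 34 higher in SUM44 LTED and 81 in neither direction. Of the 108, 60 were also called higher in SUM44 LTED and 16 in MM134 LTED.

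These interaction calls changed with the libraries in the fit. Without MM134 LTED-A or LTED-B 0 genes were called, without LTED-D 9, without LTED-E 53, without SUM44 LTED-A 95 and without SUM44 LTED-B 215. Of single wells, leaving out MM134 parental replicates 1 or 2 gave 146 and 178 calls and SUM44F parental replicate 1 203. Leaving out the averaged pair of SUM44 LTED-A replicates 2 and 3 gave 116. At an unadjusted p under 0.05 there were 5992 genes, by DESeq2 on the same units 2011 called genes (997 toward MM134 and 1014 toward SUM44), and with wells as the units 8559. Thinning every library to the smallest gave 154. A gene that was not called may still differ between the states, since the interaction test recovered 3 of 200 changes planted in simulations.

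Some genes were apart in LTED only, with less than 1.5-fold between the parental cells. On the MM134 side 6 protein-coding genes met this. ADAM28, a membrane protease, stood at 30.1, 35.2, 42.2 and 61.6 CPM in MM134 LTED and 0.797 and 0.897 CPM in SUM44 LTED, against 1.598 and 1.92 CPM in the parental cells (interaction 5.90 ± 0.63, adjusted p = 0.0341). DLL4, a Notch ligand, stood at 13.6, 9.83, 9.91 and 10.2 CPM and 0.942 and 0.719 CPM, against 1.29 and 1.74 CPM (4.14 ± 0.45, 0.0341). In both genes all MM134 variants exceeded, and all SUM44 variants fell short of, the parental level of their line. STAT3, a transcription factor of cytokine signaling, stood at 229, 177, 215 and 231 CPM and 81.3 and 81.3 CPM, against 114 and 169 CPM (1.95 ± 0.27, 0.0441). GNAL (2.69 ± 0.41), MAL2 (1.79 ± 0.27) and TMEM62 (1.87 ± 0.28) were the others. With single wells left out of 23, the interaction call of GNAL was lost for 5, of MAL2 for 4, of TMEM62 for 3 and of STAT3 for 1.

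On the SUM44 side 12 genes met it. ABTB3 stood at 0.641, 1.06, 1.17 and 0.523 CPM in MM134 LTED and 85.5 and 34.9 CPM in SUM44 LTED, against 3.52 and 2.63 CPM in the parental cells (interaction -6.57 ± 0.97, adjusted p = 0.046). APOBEC3B, a cytidine deaminase that edits DNA, stood at 10.2, 12.9, 11.8 and 12.2 CPM and 50.9 and 52.1 CPM, against 20.4 and 20.5 CPM (-2.12 ± 0.27, 0.0356). ASAP1 (-2.28 ± 0.30), C1orf226 (-2.94 ± 0.42), COMMD3 (-1.82 ± 0.28) and FADS3 (-1.79 ± 0.28) were the other 4 named. With single wells left out, the call of FADS3 was lost for 13 of 23, of COMMD3 for 6, of ABTB3 and C1orf226 for 2 each and of APOBEC3B and ASAP1 for 1 each. In APOBEC3B the 2 parental cultures were nearly equal, the 4 MM134 variants lay below and the 2 SUM44 variants above them.

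Other genes were far apart in parental cells and alike in LTED. Of 40 protein-coding genes with a parental difference above 4-fold and an LTED difference below 1.5-fold, S100A14 and S100A16, calcium-binding proteins of epithelia, had the 2 largest interactions (10.04 ± 1.57 and 8.91 ± 1.39, adjusted p = 0.0492 and 0.0492). S100A14 stood at 444, 85.2, 148 and 221 CPM in MM134 LTED and 306 and 179 CPM in SUM44 LTED, and at 0.191 CPM in MM134 parental against 219 CPM in SUM44F parental cells. The kinase gene MARK1 stood at 12.04, 9.26, 7.47 and 9.12 CPM and 14.1 and 10.9 CPM, against 0.0191 and 9.96 CPM (8.57 ± 0.63, 0.026). The desmosomal gene PERP stood at 125, 96.6, 86.9 and 151 CPM and 73.02 and 166 CPM, against 2.03 and 147 CPM (6.12 ± 0.78, 0.0361). In these genes the MM134 parental culture alone was low. GOLGA8A, which has near-identical copies that may share its reads, followed the same pattern (6.75 ± 1.00). TMPRSS11E differed, since both LTED lines were near 0 (at most 0.175 CPM) and only SUM44F parental cells had it (13.4 CPM). With single wells left out of 23, the calls of S100A14 (7), S100A16 (5), GOLGA8A (5) and PERP (1) were lost for the number of wells given. Of the list members, ERBB4 (5.01 and 108 CPM in parental cells, 79.5, 85.98, 95.9 and 108 CPM and 90.6 and 61.8 CPM in LTED) and TJP1 (3.15 and 101 CPM, 65.6, 67.6, 69.8 and 66.1 CPM and 117 and 97.9 CPM) showed a low MM134 parental culture as well.

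In the lists, the interaction called 12 genes toward MM134 and 4 toward SUM44. Among them were 2 class II genes toward MM134 (HLA-DMA 6.15 ± 0.76, adjusted p = 0.0341, and HLA-DMB 7.59 ± 1.20, adjusted p = 0.0493), 3 of the fatty acid synthesis list toward SUM44 (FADS1 -4.84 ± 0.60, FADS2 -5.11 ± 0.57 and ELOVL5 -1.51 ± 0.21) and TOP2A toward SUM44 (-1.92 ± 0.30). VIM (5.08 ± 0.66), CXCL12 (4.03 ± 0.58) and WNT11 (3.97 ± 0.57) were called toward MM134, as were the keratin KRT17 (5.88 ± 0.68), PDGFRA (5.74 ± 0.59), the lipogenic factor THRSP (4.04 ± 0.61), and HSD17B11 (4.39 ± 0.57) and SULT1E1 (5.18 ± 0.56), which modify steroids. None of these was called without MM134 LTED-A or without MM134 LTED-B. With single wells left out, the call of HLA-DMB was lost for 12 of 23, of TOP2A for 9, of THRSP for 5, of CXCL12 for 4, of VIM and WNT11 for 2 each and of ELOVL5, KRT17, PDGFRA and HSD17B11 for 1 each. Without SUM44F parental replicate 1, VIM was not called, PDGFRA fell to 2.25 (adjusted p = 0.154) and CXCL12 to 2.59 (adjusted p = 0.112).

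**Figure D4:**
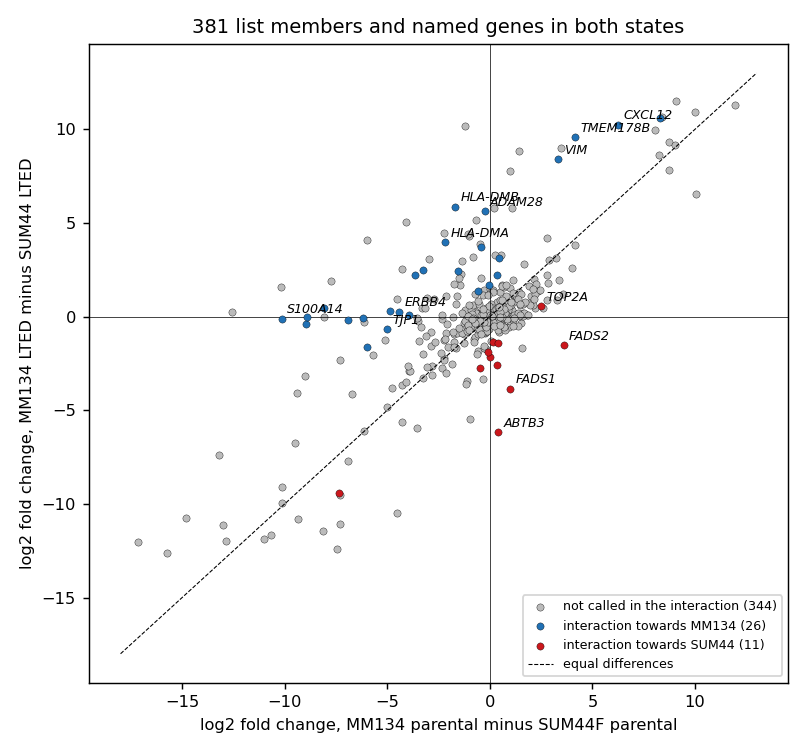
Each point is a list member or named gene, with its log2 fold change between the parental cultures on the x axis and between the LTED variants on the y axis. Points on the dashed line have equal differences in both states. Blue points above it (26) and red points below it (11) were called in the interaction.

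**Figure D5:**
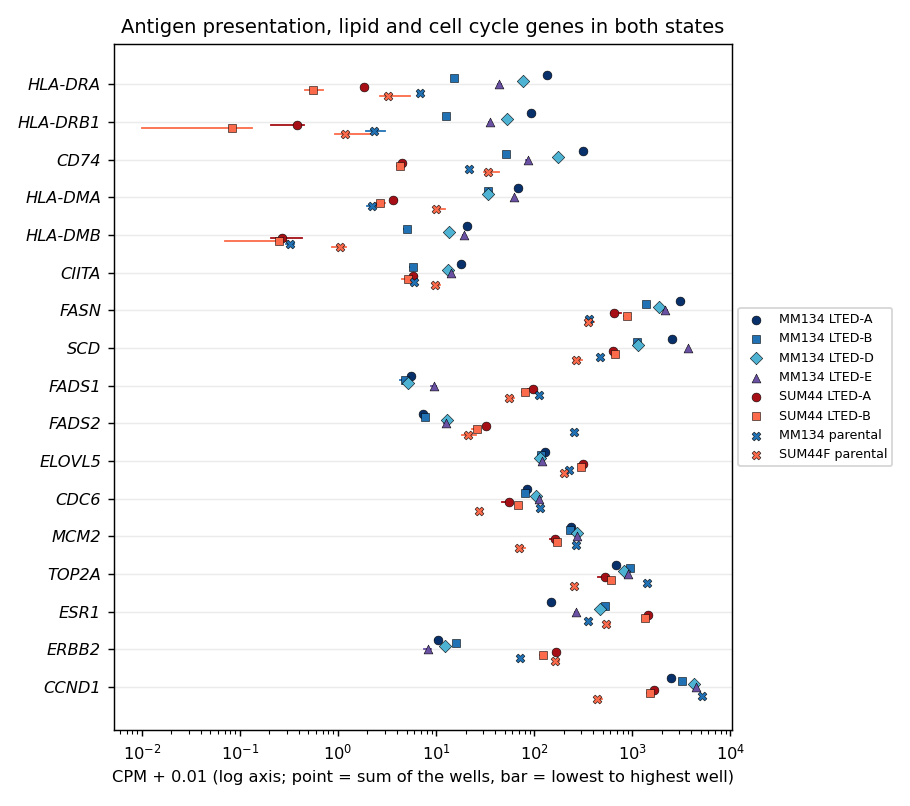
Levels (CPM + 0.01, log axis) of 17 genes in the 6 LTED variants and the 2 parental cultures (crosses). Points are summed wells and bars run from the lowest to the highest well. HLA-DRA, HLA-DRB1, CD74, HLA-DMA and HLA-DMB are higher in all MM134 variants than in either parental culture, and FADS1 and FADS2 are lower in all MM134 variants than in MM134 parental cells.

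Within a line, the variants differed most in a few genes. CPED1 stood at 67.3, 45.8, 434 and 2.89 CPM in the MM134 variants and at 0.112 and 0.123 CPM in SUM44 (log2 fold change 10.18 ± 2.52, adjusted p = 0.0195). S100A6 stood at 718, 2.58, 258 and 532 CPM in MM134, with LTED-B near 0, and at 354 and 189.9 CPM in SUM44. TXNIP, a glucose-responsive inhibitor of thioredoxin, stood at 118, 279.8, 0.387 and 112 CPM in MM134, where only LTED-D was low, and at 197 and 181 CPM in SUM44. Neither S100A6 (log2 fold change 0.46 ± 1.45, adjusted p = 0.83) nor TXNIP (log2 fold change -0.58 ± 1.48, adjusted p = 0.79) was called, and their variants overlapped between the lines. VNN2 (67.99, 0.235, 0.966 and 103 CPM in MM134) and S100A9 (157, 0.636, 4.11 and 15.1 CPM) completed the MM134 list. In SUM44, TAT, a liver-type enzyme of tyrosine breakdown and a target of the glucocorticoid receptor, stood at 24.8 and 1506 CPM in LTED-A and LTED-B, SYT1 at 80.7 and 0.706 CPM and S100A9 at 0.744 and 73.98 CPM. CPED1 was not called without either SUM44 variant (adjusted p up to 0.11).

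Differences ran along stretches of chromosomes. Over 12600 genes with at least 5 CPM, the median log2 fold change in windows of 40 genes (moved by 20) passed 0.5 in either direction in 65 stretches, 30 higher in MM134 and 35 in SUM44. All 65 had a parental median of the same sign. The median furthest toward SUM44 lay on chromosome 2 (hg38 chr2:14616428-36551135, 100 genes, median -1.33, parental -1.37). On chromosome 13 (chr13:19633659-44577147, 80 genes), 49 genes were called higher in SUM44 and 2 in MM134, with a median of -1.27 in LTED and -0.18 in the parental cells. Toward MM134, a stretch of chromosome 11 (chr11:47565336-63827716, 100 genes) had a median of 0.96, although FADS1, FADS2 and FADS3 within it were higher in SUM44, and a stretch of chromosome 6 (chr6:83193357-125932034, 100 genes) a median of 0.94. The 11q13 amplicon genes, all higher in MM134, lay inside a stretch with the opposite median (chr11:68261338-73662819, 40 genes, median -0.62). Copy number was not measured here, so a gain of DNA and other causes of a shared shift cannot be told apart.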

How the data were processed

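RNA-Seq was performed on ribosomal RNA-depleted, stranded total RNA of 3 wells per culture. Per the labels and the study's methods, the authors deposited estimated counts per Ensembl gene (release 82, hg38) from Salmon 0.6.0 with default settings. These are not scaled for library size or gene length, and trimming and the strand setting are not given in the sources used here, so reads of overlapping or antisense genes may be shared. Gene types and coordinates were matched by identifier to GENCODE release 44 (56434 of 60619 genes).

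Estimated counts were summed over the wells of a variant and rounded to whole numbers, after averaging the near-identical SUM44 LTED-A replicates 2 and 3. The 4 MM134 and 2 SUM44 sums were tested in edgeR 4.0.16 (filterByExpr, TMM, quasi-likelihood F-test, Benjamini-Hochberg adjustment). The interaction with the parental state used the same test on 8 sums. The wells of a variant were seeded side by side, and p-values measure the spread between variants. Principal components used log2(CPM + 1) of the 1000 most variable genes. SUM44PE parental libraries were not used here, since SUM44F was the parental culture of the variants. Alternatives included DESeq2 1.42.0, limma 3.58.1, other filters, normalizations and thresholds, wells as units with and without the replicate number as a block, and each well and variant left out. Both tests were also run on simulations with 200 planted changes. For the LTED line difference 114 were recovered, with 8 false calls. These were 6 of 67 at 2-fold, 45 of 67 at 4-fold and 63 of 66 at 8-fold. For the interaction 3 were recovered, with 1 false call: 0 of 67 at 2-fold, 0 of 67 at 4-fold and 3 of 66 at 8-fold. In these simulations both tests thus missed most 2-fold changes. In the data 10904 genes were called for the LTED line difference, which makes the adjustment less strict than with 200 planted changes. The recovered shares for this difference therefore do not carry over to the data. A gene that was not called may still differ.

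Genes were named by rule: the 10 protein-coding genes per direction with the widest gap between the variants of the lines, those with the largest interaction, those that varied most within a line, up to 4 called members of each of 22 gene lists, and a fixed set of receptors, cell cycle, lipid and antigen presentation genes. Further list members are named where a count is 5 or fewer, and those named beyond that were chosen after their values were seen. Some genes that meet the rule are not reported here. The members and lists were chosen with earlier results of these data known. Promoters are RefSeq sequences (GRCh38.p14). Counting intervals and floors (3 counts over a line) cover counting error only.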

Additional observations from a re-analysis of the deposited data

Results flagged for a closer look

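Among the 4 MM134 variants, 1 variant lay outside the other 3 (Dixon's test at 95%) in 19 of the 141 named genes examined. Chance would single out about 1 gene in 20, but these genes include some named because they varied most within a line, so the 2 shares cannot be compared. HOXB2 and DCTD were near 0 in all 4 variants. The variant apart was LTED-A in 7 genes, LTED-D in 7, LTED-E in 5 and LTED-B in 0.

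MM134 LTED-A lay above the others in CA9 (3.58 CPM), CRABP1 (188 CPM), DLL4 (13.6 CPM) and S100A9 (157 CPM). It lay below them in NR3C1 (37.7 CPM) and WNT11 (4.13 CPM), and it held the single count of HOXB2 (0.00475 CPM). MM134 LTED-D lay above the others in the adhesion gene CDH2 (52.0 CPM), CPED1 (434 CPM), the antiviral gene OAS3 (45.6 CPM), the immunoproteasome gene PSMB9 (1.30 CPM) and PDGFRA (0.414 CPM), and also in KCNK5 (31.8 CPM) and DCTD (0.0644 CPM). MM134 LTED-E lay above the others in the sterol genes HMGCS1 (468 CPM) and STARD4 (26.8 CPM) and in FADS1 (9.48 CPM) and IGFBP5 (5.21 CPM), and also in CASK (0.107 CPM).

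In 29 named genes the difference between the lines was called as differing between the LTED and the parental state (edgeR interaction, adjusted p under 0.05). Toward MM134 the log2 interactions were 5.90 for ADAM28, 4.03 for CXCL12, 4.14 for DLL4, 2.69 for GNAL, 6.75 for GOLGA8A, 2.32 for GSTT2B, 7.59 for HLA-DMB, 5.88 for KRT17, 1.79 for MAL2, 8.57 for MARK1, 5.74 for PDGFRA, 6.12 for PERP, 10.04 for S100A14, 8.91 for S100A16, 1.95 for STAT3, 5.41 for TMEM178B, 1.87 for TMEM62, 8.56 for TMPRSS11E, 5.08 for VIM and 3.97 for WNT11. Toward SUM44 they were -6.57 for ABTB3, -2.12 for APOBEC3B, -2.28 for ASAP1, -2.94 for C1orf226, -1.82 for COMMD3, -4.84 for FADS1, -1.79 for FADS3, -2.10 for PHGDH and -1.92 for TOP2A. In MARK1, PERP, S100A14, S100A16 and GOLGA8A the MM134 parental culture was the low value, and in TMPRSS11E the SUM44F parental culture was the high one. The GSTT2B value ran from 0.86 to 3.11 with single wells or variants left out (adjusted p up to 0.528), lowest without SUM44F parental replicate 1, and its call was lost without any of 10 of 23 wells. TMEM178B was lost for 13 wells and PHGDH for 2. None of the 29 was called without MM134 LTED-A or without MM134 LTED-B.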

How the results depend on the processing

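The count of genes called between the LTED lines, 10904, stayed within 1.5 times of itself under every alternative but the stricter adjusted p. It became 7697 to 12892 under other normalizations, filters, tools, units and fold minimums, and 1678 at an adjusted p under 0.001 (729 toward MM134 and 949 toward SUM44). With single wells left out it ran from 9846 to 10863 (5045 to 5517 toward MM134, 4801 to 5353 toward SUM44), and with single variants left out from 8119 to 10630 (3931 to 5356 toward MM134, 4188 to 5274 toward SUM44). Of the 184 called list members and named genes, 169 were called with every well left out in turn and 122 with every variant left out in turn, and 0 changed sign. PC1 held 81.2% to 89.4% of the variance with other gene numbers, pseudocount and scaling.

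The interaction, 308 genes, was less stable. DESeq2 called 2011 (997 toward MM134 and 1014 toward SUM44, of which 301 were shared), thinning to the smallest library 154 (107 and 47). At an adjusted p under 0.001 there were 0 in either direction. Wells as units called 8559 (4781 and 3778). Leaving out single wells or variants gave 0 to 330 genes (0 to 214 and 0 to 125). The cause of these changes was not tested.

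Same-numbered wells of different variants did not deviate together (correlations -0.244 to 0.126, median 0.0046, over 30 pairs, against -0.140 to 0.195 for 60 pairs of different numbers), so the numbers do not pair the wells. With the replicate number as a block, wells as units gave 12855 genes for the LTED difference and 8378 (4647 and 3731) for the interaction. S100A6 and VNN2, which were not called, changed sign with wells as units, to -0.99 and -0.96 on the log2 scale without the block and -0.99 and -0.95 with it.

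Depth was at least 32284183 counts per LTED library, and thinning to the smallest library took the interaction from 308 to 154 genes. SUM44 had 2 variants, and each line 1 parental culture. Line, passage history and culture cannot be told apart in this design. Nor can months without estrogen be told apart from months in serum depleted of other lipophilic compounds. Estimated counts of HLA genes, UGT2B genes, GSTT2B and GOLGA8A rest on how reads of similar sequences were assigned, and their part was not tested.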
